A study of Mus musculus with 2 samples.

Results

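The genes described here were 29 genes of cholesterol and fatty acid synthesis, chosen by name and present as 29 of the 32285 genes in the count tables of both libraries. They comprised 5 genes from acetyl-CoA to the end of the mevalonate pathway (Acat2, Hmgcs1, Mvk, Pmvk and Mvd), 3 genes of isoprenoid diphosphates (Idi1, Fdps and Ggps1), 11 genes of the sterol steps (Fdft1, Sqle, Lss, Cyp51, Msmo1, Nsdhl, Hsd17b7, Ebp, Sc5d, Dhcr7 and Tm7sf2), 4 genes of sterol control and transport (Srebf1, Srebf2, Insig1 and Stard4) and 6 genes of fatty acid synthesis (Acly, Acaca, Fasn, Elovl6, Scd1 and Scd2). Single-cell RNA sequencing had been performed on subcutaneous tumors of MC38, a mouse colon carcinoma line, grown in young female C57BL/6 hosts that were wild type (Lmo7+/+) or carried a global knockout of Lmo7 (Lmo7-/-). The MC38 cells themselves kept Lmo7 in both groups, the labels name no treatment, and live cells were sorted before loading on the 10x Chromium system. There was 1 library per genotype, the number of mice behind each was not given, and therefore no test between genotypes was possible. Host genotype cannot be told apart from anything else that differed between the 2 tumors.

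Cells make cholesterol and fatty acids from acetyl-CoA in the cytosol, and the later sterol steps, desaturation and elongation take place in the membrane of the endoplasmic reticulum (ER). The transcription factors encoded by Srebf1 and Srebf2 are held in that membrane while sterols are plentiful, a retention that needs the Insig1 product, and they are released to switch on most of these genes when sterols run low. Tumor cells and dividing cells draw on the pathway for new membrane, and macrophages adjust it against the lipid they take up. The genes lay on 15 chromosomes of the mm10 annotation, so that no single locus linked them all, although Scd1 and Scd2 lay close together on chromosome 19.

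Promoter sequence is shown because most of these genes shifted together in the results that follow. RefSeq windows of 300 bases (GRCm38.p6), from 250 bases before to 50 bases after the annotated start, were held for 23 of the 29 genes. CCAAT, the box bound by NF-Y, occurred on either strand in 20 of the 23 genes (87%) against 41.1% of 27025 genes, and 11 of them (47.8%) held 2 or more copies against 13.3%. GGGCGG, the Sp1 box, occurred in 18 (78.3%) against 38.2%, CACGTG in 4 (17.4%) against 8.09%, and TCACNCCAC, a sterol regulatory element, only in Hmgcs1 (4.35%) against 1.44%. The 27025 genes were all those with a window, whether or not they were expressed here, so that these shares are not matched for expression. The windows printed here belong to Hmgcs1 and Fasn, which differed between libraries in macrophages, and to Ebp and Tm7sf2, whose intervals of that ratio held 0. They are written 5′ to 3′ on the gene's strand, and capitals mark the letters of these motifs on either strand.
Hmgcs1, chr13:119690101-119690400, plus strand: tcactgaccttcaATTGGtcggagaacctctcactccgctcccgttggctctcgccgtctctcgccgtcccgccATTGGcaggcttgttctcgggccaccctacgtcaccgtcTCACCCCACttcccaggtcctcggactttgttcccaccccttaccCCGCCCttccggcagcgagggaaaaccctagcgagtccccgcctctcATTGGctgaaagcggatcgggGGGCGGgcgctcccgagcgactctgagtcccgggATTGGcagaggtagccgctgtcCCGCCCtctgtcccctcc
Fasn, chr11:120824498-120824797, minus strand: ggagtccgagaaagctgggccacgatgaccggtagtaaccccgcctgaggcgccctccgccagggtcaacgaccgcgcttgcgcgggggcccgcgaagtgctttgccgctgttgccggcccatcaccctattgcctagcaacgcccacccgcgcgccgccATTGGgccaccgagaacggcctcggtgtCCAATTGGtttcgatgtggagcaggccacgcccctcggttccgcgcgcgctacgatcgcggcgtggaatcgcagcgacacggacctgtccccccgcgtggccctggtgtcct
Ebp, chrX:8193463-8193762, minus strand: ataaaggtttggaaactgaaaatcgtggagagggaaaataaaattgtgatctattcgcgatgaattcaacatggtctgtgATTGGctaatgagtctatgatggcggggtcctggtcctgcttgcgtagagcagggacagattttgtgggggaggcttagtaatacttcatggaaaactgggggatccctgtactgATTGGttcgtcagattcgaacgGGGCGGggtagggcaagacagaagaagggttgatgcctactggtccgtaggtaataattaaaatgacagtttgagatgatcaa
Tm7sf2, chr19:6067801-6068100, minus strand: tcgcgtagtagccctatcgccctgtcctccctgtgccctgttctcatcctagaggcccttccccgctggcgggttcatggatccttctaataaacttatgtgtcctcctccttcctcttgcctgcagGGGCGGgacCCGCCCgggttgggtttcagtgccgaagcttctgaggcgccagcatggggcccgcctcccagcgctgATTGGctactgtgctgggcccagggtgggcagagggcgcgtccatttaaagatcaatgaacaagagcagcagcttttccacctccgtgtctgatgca
Counted from the start, Hmgcs1 held CCAAT at -237, -176, -45 and 11 and the sterol regulatory element at -137. Fasn held it at -90 and, as an overlapping pair on opposite strands, at -62 and -59. Ebp held it at -170 and -55 and Tm7sf2 at -47, so that the presence of CCAAT did not separate the genes by their behavior below. A match of letters is a description and not evidence of binding.

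After filtering, the Lmo7+/+ and Lmo7-/- libraries retained 13542 and 11860 cells, from 98582479 and 80648345 unique molecular identifiers (UMIs) deposited, and 279 barcodes occurred in both libraries. Cells were clustered without the 29 genes and classes were named from marker genes. All 12 macrophage markers were detected in macrophage-like cells, whereas the tumor-like class rested on 6 and 5 of 18 epithelial markers at 5 counts or more per 1000000 UMIs (CPM) and on its shared chromosome profile. Ptprc, the pan-leukocyte gene, stood at 4.07 and 4.74 CPM in tumor-like cells. Another cluster with the tumor chromosome profile (804 and 1055 cells) was left unnamed and is called the Enpp2-led cluster after its leading genes over all its cells. A second clustering split most of it into a state led by Enpp2 and Col3a1 (510 and 511 of its cells) and a cycling state led by Ccl2, Cdt1 and Rrm2 (126 and 452), and the cycling state took 21.1% of its UMIs in the Lmo7+/+ and 51.1% in the library labelled Lmo7-/-. In all, 20.7% and 17% of cells belonged to no class. The largest cluster among them (2025 and 1160 cells) was led by Malat1 and had a median of 1654 UMIs. It carried part of the tumor chromosome profile and is not in any tumor value given here. Lmo7 itself stood at 20.8 and 18 CPM in tumor-like cells, where it was not deleted, and at only 8 and 9 UMIs in macrophage-like cells. The host class that held it was the endothelial-like one, with 18 UMIs in 96 cells of the Lmo7+/+ library (37 CPM, 95% interval 21.9 to 58.5) and 12 UMIs in 72 cells of the library labelled Lmo7-/- (29.4 CPM, 15.2 to 51.3), a log2 ratio of -0.33 (-1.52 to 0.80). Tumor RNA carried at the share of Cryaa in that class would give 3.64 and 1.43 CPM. Lmo7 transcript was thus present in host cells of the library labelled a knockout, against what that label would give for a deletion that removes the transcript. The part of the gene deleted is not given in the sources used here, and every direction between genotypes rests on the labels alone. Cryaa, a lens gene of the tumor cells, appeared in macrophage-like cells at 4.93% and 3.85% of its tumor-like level, a rough measure of the tumor RNA carried in those droplets. The share depends on the tumor cells taken as reference. In the library labelled Lmo7-/- Cryaa stood at 124 CPM in tumor-like cells and at 40.7 CPM in the Enpp2-led cluster.

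Levels are given as CPM, the UMIs of a gene per 1000000 UMIs summed over the cells of a class in a library, and their 95% intervals cover counting error only. Summed over the 29 genes, tumor-like cells held 3901.1 CPM in the Lmo7+/+ (4116 cells) and 3450.1 CPM in the library labelled Lmo7-/- (2751 cells). The Enpp2-led cluster held 4282.0 and 4863.2 CPM, the highest of all classes in both libraries. Among host cells, monocyte-like cells held 2435.9 and 2116.4, dendritic-like cells 2234.7 and 1861.0, and macrophage-like cells 2076.0 and 1597.0. T cell-like cells held 1732.0 and 1369.7, fibroblast-like cells 1622.7 and 1269.7, NK-like cells 1429.4 and 1045.7, and endothelial-like cells 1205.7 and 1244.1. The summed level was thus highest in cells of the tumor profile, and it was lower in the library labelled Lmo7-/- in each of these host classes except the endothelial-like one.

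**Figure D1:**
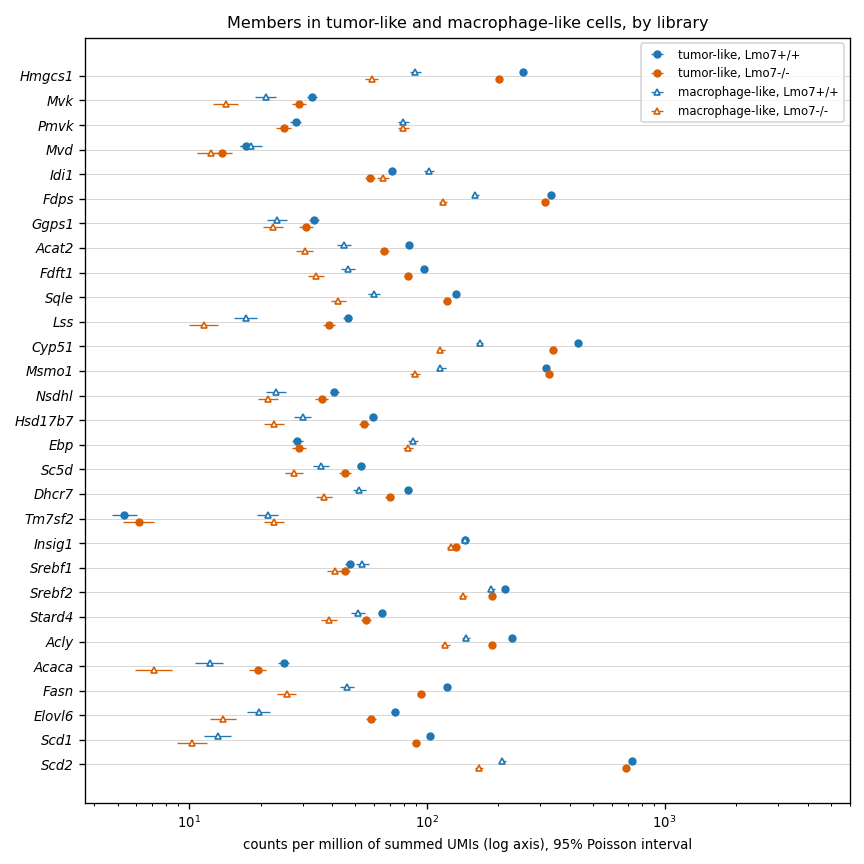
Level of each of the 29 genes (CPM, log axis) in tumor-like and macrophage-like cells of the Lmo7+/+ and Lmo7-/- libraries, with bars for the exact Poisson 95% interval. Most genes sit higher in tumor-like cells, whereas Pmvk, Ebp and Tm7sf2 sit higher in macrophage-like cells of both libraries.

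Ranked over the classes without the small NK-like one, 21 of the 29 genes were highest in a class with the tumor profile in both libraries, against 41.3% of 8293 genes with at least as many counts as the least counted of the 29. Idi1, Ggps1 and Stard4 were so in 1 library only. A gene was counted as past the fold at a log2 ratio of 0.5 or more in size, among genes with at least 20 counts. Tumor-like cells exceeded macrophage-like cells past the fold for 20 genes in each library, 19 of them shared, against 48.2% and 50.2% of all genes, and the median log2 ratio was 0.81 and 1.03 against 0.454 and 0.510 over all genes. The count was thus moderately above a background in which many genes were higher in tumor-like cells, whose cells were also deeper.

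Of the 29 genes Scd1 separated the compartments most in both libraries. Scd1, a stearoyl-CoA desaturase, stood at 103 and 90.1 CPM in tumor-like cells against 13.2 and 10.3 in macrophage-like cells, log2 ratios of 2.96 (95% interval 2.77 to 3.16) and 3.13 (2.92 to 3.35). Its paralog Scd2 stood at 732 and 690 CPM against 208 and 166, and the elongase gene Elovl6 at 73.2 and 58.4 against 19.6 and 13.9. The intervals of both cell classes did not overlap for any of these genes, and reads shared between Scd1 and Scd2 could not be resolved here. Levels were not corrected for tumor RNA carried in macrophage-like droplets, which may make up part of low levels such as that of Scd1. Hmgcs1, which makes the precursor of mevalonate, was also far higher in tumor-like cells, at 254 and 202 CPM against 89.6 and 58.6. Insig1, the sterol-sensing retention factor, was level between the classes in both libraries, at 145 CPM in each class of the Lmo7+/+ library and, in the other library, at 133 against 126 CPM.

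A few enzymes ran the other way and were highest in host cells. Tumor-like cells fell short of macrophage-like cells past the fold for 4 and 3 genes, against 24.1% and 24.6% of all genes, and Pmvk, Ebp and Tm7sf2 did so in both libraries. Pmvk, the phosphomevalonate kinase, was highest in dendritic-like cells at 198 and 159 CPM and stood at 79.6 CPM in both libraries among macrophage-like cells, against 28.1 and 25.1 in tumor-like cells. Ebp, the sterol isomerase, was highest in T cell-like cells at 89.7 and 90.3 CPM, close to the 87.3 and 83.3 of macrophage-like cells, against 28.5 and 28.9 in tumor-like cells. Tm7sf2, a sterol reductase gene, reached 21.4 and 22.8 CPM in macrophage-like cells against 5.34 and 6.14 in tumor-like cells. The regulators did not share a class. Srebf2 was highest in dendritic-like cells at 346 and 298 CPM, although tumor-like cells lay above macrophage-like cells by 0.18 and 0.41 on the log2 scale. Srebf1 was highest in monocyte-like cells at 54.7 and 57.5 CPM, little above the 53.5 CPM of Lmo7+/+ macrophage-like cells, when NK-like cells with 11 and 9 of its counts were left out. Insig1 was highest in the Enpp2-led cluster at 185 and 197 CPM, close to the 183 CPM of monocyte-like cells in each library. Stard4, a sterol carrier gene, was highest in T cell-like cells of the Lmo7+/+ library (94.4 CPM) and in low-mitochondrial tumor cells of the library labelled Lmo7-/- (125 CPM). Idi1, the isopentenyl diphosphate isomerase, was lower in tumor-like than macrophage-like cells past the fold in the Lmo7+/+ library (log2 ratio -0.51) but not in the library labelled Lmo7-/- (-0.18). Among pathway genes outside the 29, 12 of 15 further synthesis genes were higher in tumor-like cells of each library (median log2 ratio 0.73 and 0.71). Past the fold were 9 of them, against 48.2% and 50.2% of all genes, so that this list lay only somewhat above the background. Of 12 efflux and storage genes 10 were lower (median -2.65 and -3.16), 9 of them past the fold, against 24.1% and 24.6%.

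Macrophage-like cells of the library labelled Lmo7-/- held lower levels across nearly the whole pathway. The log2 ratio of Lmo7-/- to Lmo7+/+ was below 0 for 27 of the 29 genes, against 66.0% of 12030 genes, and its counting interval lay below 0 for 24 genes, against 30.3%. Past the fold were 9 genes, against 8.15% of all genes, and the median over the 29 was -0.40 against -0.101 over all genes. Relative to that general shift the median was -0.30, and 4 genes remained past the fold after centering on it. The count past the fold ranged from 4 to 18 over 16 alternatives, with the median between -0.54 and -0.30, and was 10 without the barcodes found in both libraries. Cells of the library labelled Lmo7-/- were also shallower, with a median of 4388 UMIs per macrophage-like cell against 5275.

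The difference ran through every arm of the pathway. In the mevalonate arm, Hmgcs1 went from 89.6 CPM (95% interval 85.3 to 94.1) in the Lmo7+/+ library to 58.6 (55.1 to 62.2) in the library labelled Lmo7-/-, a log2 ratio of -0.61 (-0.73 to -0.50). Acat2, Mvk and Mvd, which supply and finish mevalonate conversion, each had a log2 ratio of -0.56, whereas Pmvk between them stood at the same 79.6 CPM in both libraries. Idi1 went from 102 to 65.4 CPM, a log2 ratio of -0.64 (-0.74 to -0.53), and Fdps, the farnesyl diphosphate synthase, which overlaps Gm43738 on its own strand, from 160 to 117 CPM (-0.46). Ggps1, which makes the lipid anchor of small GTPases, was 23.5 and 22.6 CPM.

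Sterol genes followed with smaller differences. Cyp51, the lanosterol demethylase, went from 167 to 114 CPM (log2 ratio -0.54, -0.62 to -0.46), and Lss, the lanosterol synthase, from 17.3 to 11.5 CPM (-0.59, -0.85 to -0.33). Just inside the fold threshold was Cyp51, and just outside it were Elovl6, Sqle and Dhcr7 at -0.50 (short of the threshold before rounding), -0.49 and -0.49. The intervals of Ebp, Tm7sf2 and Nsdhl held 0, with log2 ratios of -0.07, 0.09 and -0.11. Among the regulators Srebf2 had a log2 ratio of -0.40, Srebf1 of -0.39, Stard4 of -0.40 and Insig1 of -0.20, none past the fold.

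The largest differences of single genes were those of Fasn and Acaca in fatty acid synthesis, although this arm as a whole did not differ most. Fasn, the fatty acid synthase, went from 46.1 to 25.7 CPM, a log2 ratio of -0.85 (-1.01 to -0.68). Acaca, whose product acetyl-CoA carboxylase feeds it, went from 12.2 to 7.11 CPM (-0.77, -1.10 to -0.46). Scd2 went from 208 to 166 CPM (-0.33) and Acly, the citrate lyase, from 146 to 119 (-0.29). Over the 6 genes of this arm the median was -0.43, beside -0.56 for mevalonate, -0.46 for isoprenoid, -0.39 for sterol and -0.40 for control genes.

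**Figure D2:**
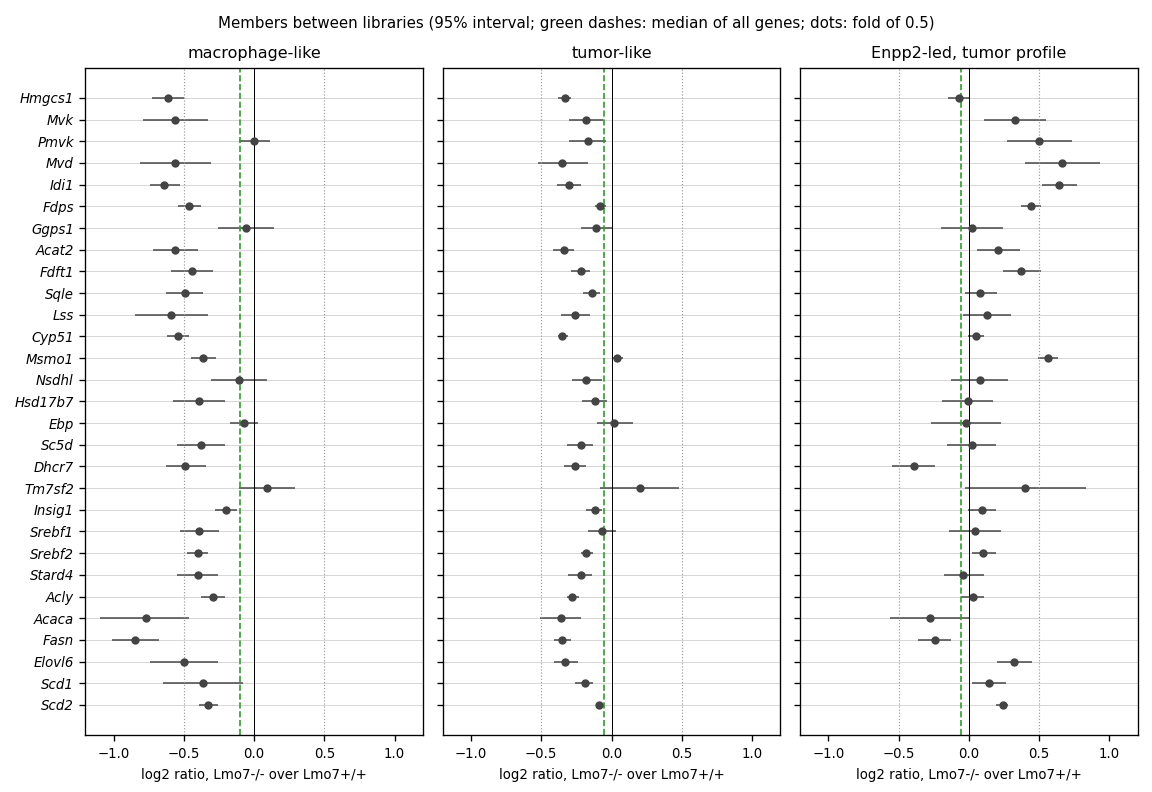
Log2 ratio of CPM, Lmo7-/- over Lmo7+/+, of each gene in macrophage-like, tumor-like and Enpp2-led cells, with exact 95% intervals for counting error; dashed lines mark the median of all genes and dotted lines the fold of 0.5. In macrophage-like cells 27 of 29 ratios lie below 0, tumor-like ratios lie nearer to 0, and 22 ratios of the Enpp2-led cells lie above it.

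Genes around the pathway did not all move with it. Over all genes of macrophage-like cells 66.0% had a log2 ratio below 0. In the same macrophage-like cells 12 of 15 further synthesis genes had lower levels in the library labelled Lmo7-/- (median log2 ratio -0.24), among them the desaturase gene Fads2 at 46.7 against 71.6 CPM (-0.62). Efflux and storage genes went the other way for 9 of 12 (median 0.16), with Apoe, the main lipid carrier of macrophages, at 5167.2 against 3741.9 CPM (0.47), whereas the triglyceride synthesis gene Dgat2 (-0.56) and the oxysterol gene Ch25h (-0.50) were lower past the fold. Uptake genes were mixed (median 0.05), with 4 intervals below 0 and 5 above, and 1 gene past the fold in each direction. The higher one was the scavenger receptor gene Cd36, at 138 against 83.6 CPM (0.72), and the lower one is not reported here. Of the further regulators, Nr1h3, which encodes the oxysterol receptor LXR alpha, stood at 30.1 against 20.3 CPM (0.57) and its relative Nr1h2 at 60.5 against 56.6 (0.10), with a list median of 0.10. Isoprenoid-using enzymes were lower for 11 of 11 genes but little (median -0.10), and fatty acid oxidation genes had a median of -0.07. Hypoxia genes were higher for 9 of 9 (median 0.33, Vegfa 0.84) and dissociation stress genes lower for 7 of 8 (median -0.36). Their part in the difference of the synthesis genes was not tested.

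The difference was not uniform over macrophage states, which had been clustered without the 29 genes. In the state marked by Ccl8 and Vcam1 (881 and 1348 cells) the median log2 ratio was -0.59 and 16 genes were lower past the fold, against 9.08% of all genes. This state was named by its leading genes. Of the marker lists it lay closest to that of MHC class II and inflammatory genes, ahead of the Ccl8 and Vcam1 list. In the state marked by Cd300e (774 and 889 cells) the median was -0.41 with 9 genes past the fold, against 14.5%. In the cycling state (894 and 807 cells) it was -0.14 with 0 genes past the fold, against 7.73%. The genotypes thus lay closest in cycling macrophages, and the difference between states was not tested. The smaller Arg1 and Gpnmb state (192 and 278 cells), the interferon state (226 and 175 cells) and a state marked by Sparc and Rhox5 (156 and 158 cells), genes of tumor cells, had medians of -0.42, -0.31 and -0.38. A further state of 47 cells was too small to compare.

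Fasn showed the span of these differences best. In the Ccl8 state Fasn stood at 41.6 CPM (Lmo7+/+) and 15 CPM (Lmo7-/-), a log2 ratio of -1.47 (-1.82 to -1.14). In the cycling state it stood at 49.2 and 38.1 CPM (-0.37, -0.63 to -0.12). Idi1 behaved alike, with 88.6 against 41.6 CPM in the Ccl8 state (-1.09) and 112 against 99.2 CPM in the cycling state (-0.18). Of the 23 genes with enough counts in all 6 states, 14 were lower in the library labelled Lmo7-/- in every state, against 14.0% of 6564 genes, among them Hmgcs1, Idi1, Cyp51, Sqle, Fasn and both Srebf genes. Lower here means only a ratio below 0, and many intervals held 0. Examples are Srebf1 in the interferon state (-0.02, -0.69 to 0.64) and Srebf2 in the cycling state (-0.08, -0.20 to 0.04).

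**Figure D3:**
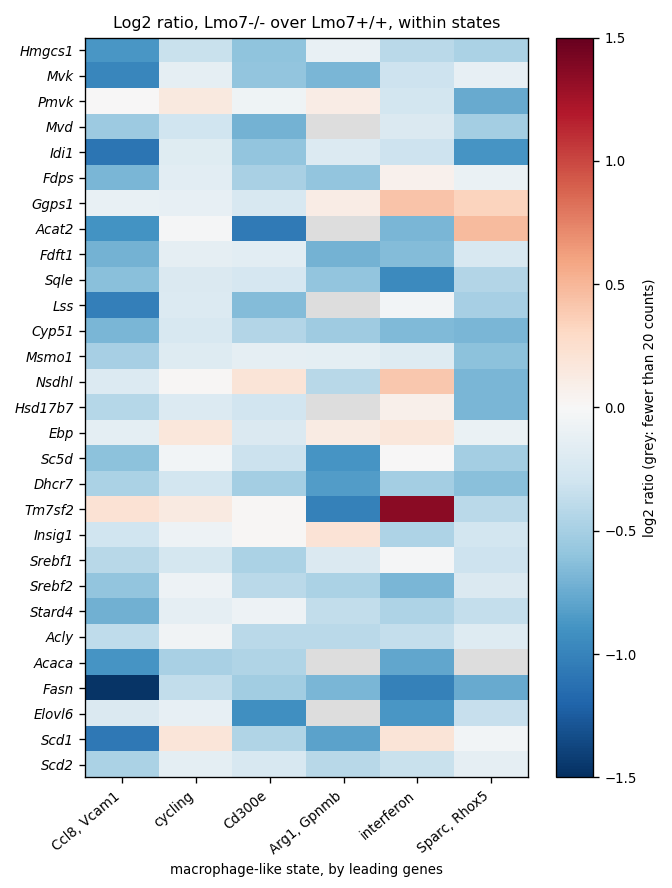
Heat map of the log2 ratio of CPM, Lmo7-/- over Lmo7+/+, for each of the 29 genes (rows) in 6 macrophage states (columns), blue below 0, red above 0 and gray for fewer than 20 counts. Blue is deepest in the Ccl8 and Vcam1 state, down to -1.47 for Fasn, and palest in the cycling state, whose median is -0.14.

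Cycling macrophages stood out from other macrophages mainly in the library labelled Lmo7-/-. There, 20 genes were higher past the fold in the cycling state than in all other macrophage-like cells, against 16.8% of all genes, and the median log2 ratio was 0.61. In the Lmo7+/+ library 1 gene was, Elovl6, against 12.9%, and the median was 0.22. Acat2, the cytosolic thiolase, stood at 51.9 against 21.6 CPM in the library labelled Lmo7-/- (1.27, 1.02 to 1.51) and at 52.8 against 40.3 in the Lmo7+/+ library (0.39, 0.18 to 0.59), so that its level in cycling cells was close in both libraries and its level in the other cells was lower in the library labelled Lmo7-/-. Acat2 reads may be shared with related thiolase genes.

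The Arg1 and Gpnmb state of macrophages was also led by the stress genes Hspa1a and Hspa1b and by the hypoxia gene Ero1l. Most pathway genes were lower in this state than in other macrophage-like cells of both libraries. The summed level of the pathway genes in the state was 1272.7 CPM (Lmo7+/+) and 990 CPM (Lmo7-/-). Over all macrophage-like cells, which include the state, it was 2076.0 and 1597.0 CPM. Compared with all other macrophage-like cells, 22 (Lmo7+/+) and 24 (Lmo7-/-) genes were lower past the fold, 21 of them in both libraries, against 30.3% and 30.8% of all genes. Some of these rested on few counts in the state, such as Acaca (3 and 1) and Mvd (9 and 9). The intervals of Mvd and Mvk held 0 in both libraries. The medians were -0.91 and -0.84, beside -0.126 and -0.153 over all genes. Cyp51 stood at 50.9 against 172 CPM in the Lmo7+/+ library, and its log2 ratio was -1.76 there and in the other library alike. Idi1 stood at 30.8 against 105 CPM and at 26.5 against 68.0. Levels in this state lay below those of the other macrophages in both libraries for both genes, with intervals that did not reach 0.

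Scd2 was the only one of the 29 genes with an interval above 0 in both libraries. Scd2 stood at 312 CPM in the Arg1 and Gpnmb state against 203 in the other macrophage-like cells of the Lmo7+/+ library (0.62, 0.43 to 0.80), and at 233 against 162 in the library labelled Lmo7-/- (0.53, 0.34 to 0.71). Ggps1 was also higher in the state, at 29.6 against 23.2 CPM and at 31.8 against 22 CPM (log2 ratios 0.35 and 0.53), with intervals that reached 0. Srebf1 was at about the same level inside and outside the state (48.5 and 53.7 CPM, 41.5 and 40.9 CPM). Elovl6 had 0 counts in this state of the library labelled Lmo7-/-, and its ratio there is a bound.

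Ranking macrophage-like cells by the UMI share of the same markers gave the same order without the cluster boundary. Cells of each library were divided into 4 bins of equal size. From the lowest to the highest bin of the Lmo7+/+ library the summed level of the 29 genes was 2169.4, 2171.6, 2211.9 and 1687.8 CPM. In the library labelled Lmo7-/- it was 1755.8, 1805.2, 1641.5 and 1142.2 CPM. The drop was thus in the top bin, while the other 3 bins of each library lay closer together. The top bin was also the shallowest, with a median of 4347 and 3930 UMIs per cell.

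**Figure D4:**
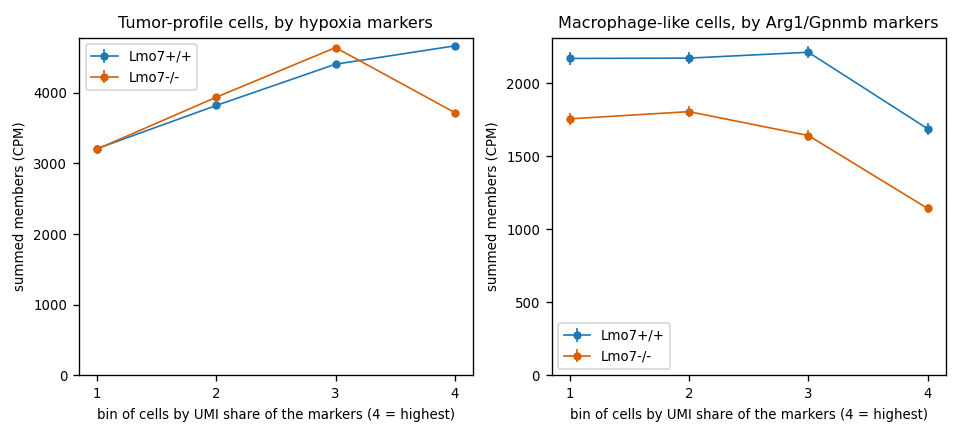
Summed level of the 29 genes (CPM, with exact Poisson 95% intervals) in 4 bins of cells ranked by marker share, for Arg1 and Gpnmb markers in macrophage-like cells and hypoxia markers in tumor-profile cells. Macrophage levels drop in the top bin of both libraries, whereas tumor levels rise over the first 3 bins.

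Tumor-like cells, wild type for Lmo7 in both hosts, differed less. Levels were below those of the Lmo7+/+ library for 26 of 29 genes, against 61.4% of all genes, with the interval below 0 for 24, against 25.2%, but 0 genes were past the fold, against 5.50%. The median log2 ratio was -0.19 beside -0.051 over all genes. These values pool states whose mix differed between libraries. Among states of all tumor-profile cells, the summed level was 4474.7 and 4149.4 CPM in the largest, led by Aldoc. It was 3379.7 and 2883.7 in the state led by Tk1, 3803.4 and 3750.0 in that led by Cdc20, and 3860.1 and 3404.3 in that led by Ctss. In the hypoxia-led state (344 and 495 cells) it was 2285.9 and 2307.1. The part of the mix in the pooled ratios was not tested. Acaca (-0.36, -0.51 to -0.22), Fasn (-0.35, -0.41 to -0.29), Cyp51 (-0.35, -0.38 to -0.31) and Mvd (-0.35, -0.52 to -0.17) lay lowest, and Cyp51 stood at 431 and 338 CPM. Msmo1, the methyl sterol monooxygenase, was 318 and 327 CPM. Hypoxia genes were higher for 9 of 9 (median 0.49) and stress genes lower for 7 of 8 (median -0.36) in these cells too. Further synthesis genes had a median of -0.14, uptake genes of -0.18, isoprenoid-using genes of -0.08, oxidation genes of -0.04, efflux and storage genes of 0.00 and further regulators of 0.08.

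The Enpp2-led cluster, which shared the tumor chromosome profile, leaned slightly the other way when its states were pooled. Of the 29 genes 22 had higher levels in the library labelled Lmo7-/-, 3 of them past the fold against 7.74% of all genes, with the interval above 0 for 12, against 17.2%. The median was 0.09 beside -0.055. Mvd stood at 22.6 and 35.8 CPM (0.66), Fdps at 333 and 452 (0.44) and Msmo1 at 303 and 447 (0.56), whereas Dhcr7 stood at 82.1 and 62.5 (-0.39). The cluster was a different mix in each library, with the cycling state at 21.1% and 51.1% of its UMIs, Cryaa at 170 and 40.7 CPM and Krt14 at 31.4 and 2.32 CPM. Within the Enpp2 and Col3a1 state the median was 0.06 beside -0.029 over all genes, with 19 of 29 genes higher. Within the cycling state it was 0.01, below the 0.040 over all genes, with 16 higher. The share of all genes above 0 was not counted for the cluster or its states, so that the counts of 22, 19 and 16 have no background beside them. The lean of the pathway as a whole was thus small within each state, and that of single genes varied. Mvd (0.59 and 0.63), Msmo1 (0.63 and 0.28) and Fdps (0.21 and 0.57) were higher within both states, with intervals above 0. Idi1 was higher within the Enpp2 and Col3a1 state (0.57) but had an interval that held 0 in the cycling state (0.18, -0.01 to 0.38), and Dhcr7 was -0.30 and 0.10. Fasn was lower within both (-0.35 and -0.40). With this cluster counted among tumor-like cells the median of the tumor-like class was -0.05 and Idi1 changed sign, from -0.30 to 0.18.

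Smaller host classes mostly lay below 0 too. T cell-like cells had a median of -0.33 with 10 of 27 genes lower past the fold, against 11.6% of all genes, and Hmgcs1 at -0.74 (-1.18 to -0.30) and Cyp51 at -0.69 (-0.99 to -0.39). Dendritic-like cells had a median of -0.31 with 8 genes past the fold, against 14.1%, and monocyte-like cells a median of -0.12 with 7, against 13.2%. Fibroblast-like and endothelial-like cells had medians of -0.37 and -0.02 over 23 and 17 genes with enough counts. The 5 genes with enough counts in NK-like cells all had intervals that held 0.

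A cluster of the tumor profile with almost no mitochondrial reads split the pathway by where its proteins reside. In these 1037 and 845 cells mitochondrial genes took a median of 0.294% and 0.203% of UMIs, against 7.18% and 6.9% in other tumor-like cells, and cells held a median of 2165 and 1916 UMIs against 10360 and 8989. Of the 17 genes whose products lie in the ER membrane, 11 (Lmo7+/+) and 10 (Lmo7-/-) were lower past the fold than in other tumor-like cells, 10 in both libraries, against 17.8% of all genes in each library. Of the 12 genes with cytosolic products 0 were lower past the fold in either library, and 3 and 9 were higher, against 25.6% and 29.1% of all genes. Medians were -0.85 and -0.73 for ER genes and 0.42 and 0.59 for cytosolic genes, beside 0.251 and 0.272 over all genes. The grouping by location was made after the values of this cluster had been seen, and it is a description.

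Genes of the early cytosolic steps were not lower in these cells. Hmgcs1 stood at 353 CPM in the low-mitochondrial cells against 254 in other tumor-like cells of the Lmo7+/+ library, and at 316 against 202 in the other. Idi1 and Fdps were level or higher (99.1 against 71.3 and 349 against 332 CPM in the Lmo7+/+ library).

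From Fdft1 onward the enzymes sit in the ER membrane, and most of their genes were lower in these cells. Cyp51 stood at 122 against 431 CPM (-1.82, -1.98 to -1.66) in the Lmo7+/+ library and at 112 against 338 (-1.59, -1.79 to -1.40) in the library labelled Lmo7-/-. Msmo1 stood at 91.5 against 318 and at 88.4 against 327 CPM, and Dhcr7, a sterol reductase gene, at 19.8 against 83.6 and at 17.3 against 69.8. In both libraries the levels of these genes were far below those of other tumor-like cells, with intervals that did not overlap. Lss was level, at 50.5 against 46.4 and at 41.5 against 38.9 CPM, with intervals that held 0. The intervals of Tm7sf2, from 13 and 11 counts in these cells, also held 0 in both libraries (-0.17 and -0.18), as did that of Hsd17b7 in the library labelled Lmo7-/- (-0.26). Srebf1 was far lower (13.2 against 47.3 and 13.8 against 45.1 CPM), whereas Srebf2 (180.0 against 213 and 174 against 188 CPM) was little lower. Dhcr7, Srebf1 and Tm7sf2 had fewer than 100 counts in these cells and were named after their values had been seen.

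In fatty acid synthesis, the cytosolic Acly stood at 292 against 228 and at 269 against 188 CPM. The membrane desaturase gene Scd2 stood at 259 against 732 and at 289 against 690 CPM. Elovl6 stood at 36.2 against 73.2 and at 33.1 against 58.4 CPM. Fasn was on different sides of 0 in the 2 libraries (-0.29 and 0.22), and Acaca had intervals that held 0. Outside the 29, the cytosolic malic enzyme gene Me1 stood at 126 against 83.7 and at 145 against 93.5 CPM. Among uptake genes 8 of 10 were lower past the fold in each library (medians -1.94 and -1.96), against 17.8% of all genes. The membrane protein gene H2-K1 stood at 385 and 443 CPM against 2677.5 and 3199.4, and the mitochondrially encoded mt-Co1 at 981 and 697 CPM against 15490.9 and 14590.8. The part of depth and of the mitochondrial share in the split was not tested.

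**Figure D5:**
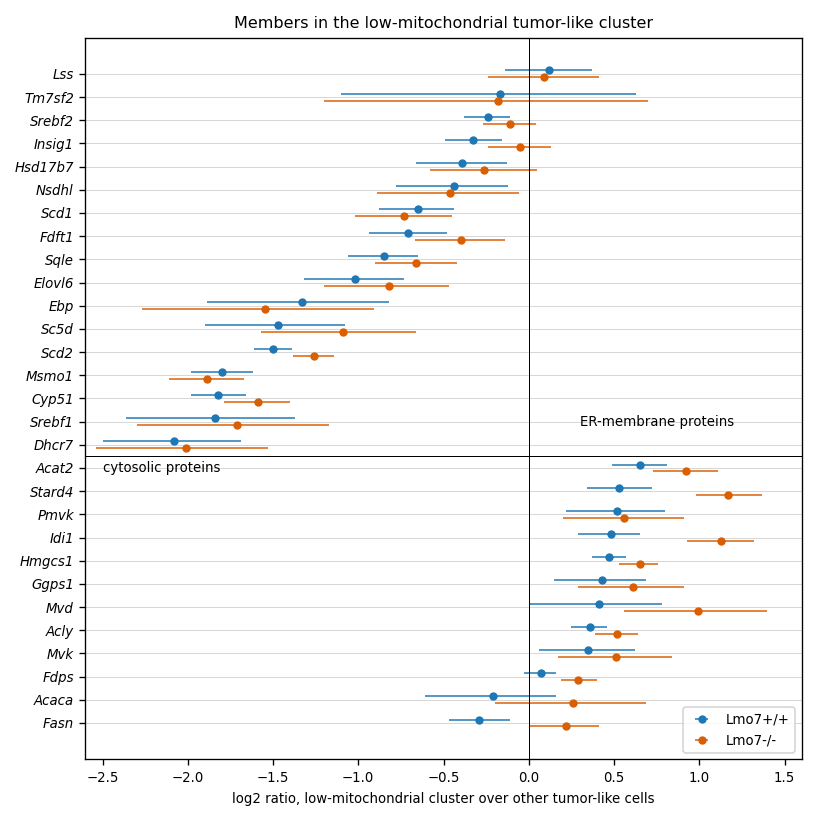
Log2 ratio of CPM of each gene in the low-mitochondrial cluster over other tumor-like cells, by library, with exact 95% intervals. Genes with ER-membrane products lie mostly below 0, down to -2.08, whereas those with cytosolic products lie mostly above it, up to 1.17.

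A tumor-profile cluster led by the hypoxia genes Ero1l, Slc2a1 and Ankrd37 (344 and 495 cells) held lower levels of 23 and 22 genes past the fold, 22 in both, against 26.9% and 29.1% of all genes, with medians of -1.15 and -1.01. Idi1 stood at 18.5 against 77.9 and at 20.2 against 91.4 CPM, and Acat2 at 17.1 against 85.7 and at 20.8 against 76.3. Scd2 lay near its level elsewhere, at 667 against 745 and at 664 against 770 CPM. This result depended on where the cluster's boundary was drawn. With 5 other filters or clusterings the hypoxia-led cluster grew to between 1247 and 2181 cells, 0 to 4 genes were lower past the fold, and the Lmo7+/+ median was above 0. In 4 bins of tumor-profile cells ranked by hypoxia markers the summed level rose in the Lmo7+/+ library, from 3208.6 over 3820.5 and 4405.1 to 4665.2 CPM. In the library labelled Lmo7-/- it rose from 3201.9 over 3937.1 to 4640.4 CPM and was 3718.9 in the top bin. Tumor cells rich in hypoxia markers therefore did not share a single level of the pathway.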

How the data were processed

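The authors deposited raw UMI counts per gene and droplet for 2 libraries, made with Cell Ranger 2.1.1 on mm10 per the labels, while the file header names version 3.0.0; strand handling is not given in the sources used here. Droplets entered with 500 or more genes, 1000 or more UMIs and a mitochondrial share of 15% or less. Scanpy 1.11.5 was used to cluster cells (2000 variable genes without the 29 genes, 30 components, 20 neighbors, Louvain resolution 0.5). Doublets (2.9% and 2.6% called) were kept and removed in an alternative. UMIs were summed per class and library. Ratios carry exact 95% binomial intervals of the split of counts. Their calculation was checked on simulated Poisson counts, which held no variation between cells or tumors, so that the check does not cover such variation. Genes with at least 20 counts were compared, and 0.5 on the log2 scale was the fold. edgeR 4.0.16 gave the TMM alternative only.

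The 29 genes, the lists and the markers were chosen with earlier results of these data known. Genes were described singly where they had at least 100 counts in a class, in full where past the fold or highest outside the common class; up to 4 genes a list were named, and some list genes are not reported here. Fdft1, Cyp51, Ggps1, Mvd, Fdps, Srebf1, Acaca and Tm7sf2 overlap another protein-coding gene (8 genes), and Tm7sf2 with Vps51 and Fdps with Gm43738 share a strand, so that their reads may be shared. Alternatives were other cell filters, clusterings, marker gates, scalings and minimum counts.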

Additional observations from a re-analysis of the deposited data

Results flagged for a closer look

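Pairs of classes in which the Lmo7-/- to Lmo7+/+ log2 ratio of a gene was past the fold in opposite directions, with intervals on opposite sides of 0, were singled out. Mvd had a log2 ratio of -0.56 in macrophage-like cells and 0.66 in the Enpp2-led cluster of the tumor profile. Idi1 had a ratio of -1.09 in fibroblast-like cells, from 37 and 15 UMIs, and 0.64 in the Enpp2-led cluster, where it was 0.57 and 0.18 within its Enpp2 and Col3a1 state and its cycling state. Msmo1 had a ratio of -0.70 in T cell-like cells, from 71 and 61 UMIs, and 1.46 in endothelial-like cells, from 16 and 37 UMIs. Pairs with more counts also met the rule. Idi1 was -0.64 in macrophage-like cells, from 1841 and 1196 UMIs, against the Enpp2-led cluster. Msmo1 was 0.56 in the Enpp2-led cluster, from 2256 and 5198 UMIs, against T cell-like cells. These differences between classes were not tested, since each genotype had 1 library.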

How the results depend on the processing

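No paired analysis was possible because each genotype had 1 library. Library, host and tumor cannot be told apart, and intervals cover counting error only. In macrophage-like cells the median log2 ratio of the 29 genes stayed between -0.54 and -0.30 over 16 alternatives and no gene whose interval excluded 0 changed sign, but the count past the fold (9) was 18 with the lenient cell filter, 17 without called doublets, 15 under both the strict filter and marker gates, and 4 with TMM scaling and after centering on the median gene. In tumor-like cells the median was -0.08 with the lenient filter or doublets removed and -0.05 with the Enpp2-led cluster included, and 1 gene was past the fold with the mean of per-cell shares and with thinned cells. Genes of tumor-like cells whose interval excluded 0 and whose sign changed were Pmvk, Mvd, Idi1 and Fdps with the lenient filter (0.04, 0.02, 0.12, 0.07) and with doublets removed (0.03, 0.04, 0.10, 0.06). With the Enpp2-led cluster, Mvk was 0.01, Pmvk 0.08, Mvd 0.14, Idi1 0.18, Fdps 0.09, Insig1 0.01, Elovl6 0.02 and Scd2 0.04.

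The hypoxia-led tumor cluster depended on the processing. The lenient filter gave 2 genes lower past the fold in both libraries with medians of 0.06 (Lmo7+/+) and -0.30 (Lmo7-/-), the strict filter 0 genes with 0.25 and -0.35, removal of doublets 0 genes with 0.18 and -0.32, a resolution of 1.0 gave 0 genes with 0.20 and -0.23, and clustering with the 29 genes 4 genes with 0.02 and -0.53. The Lmo7+/+ median was -0.73 as the mean of per-cell shares. In these 5 clusterings the cluster held more cells, 1247 to 2181 against 839. The comparison of tumor-like with macrophage-like cells (19 to 20 genes higher, 3 lower), the Arg1 and Gpnmb state (18 to 24 genes lower) and the low-mitochondrial cluster (10 to 12 ER genes and 0 cytosolic genes lower) held under all alternatives run, including droplets without the barcodes found in both libraries, which like the Enpp2-led, Enpp2-cluster state, mitochondrial-share, Sparc-cluster and ranked-bin alternatives was chosen after seeing the data. Marker gates left 2 tumor cells and gave no value for that class.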
